A study of Mus musculus with 16 samples.

Results

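Microglia and macrophages share a set of genes that neurons mostly do not use, and 37 such genes were followed here in primary cultures of mouse brain neurons. They were chosen by symbol as markers of these cells, with earlier results of these data known. Counts of members called, set beside shares over all genes, therefore describe this list and do not test it. All 37 were present among the 45724 genes of the deposited tables. The cultures were made from P0 (newborn) brain of C57BL/6 mice and received 1 of 3 peptides, named NP24, Tβ10 and Tβ4, or DPBS, the buffer that served as vehicle control. The submitters call the peptides products of the SCO, the subcommissural organ, a gland of the brain ventricles. Total RNA was sequenced from 4 libraries of each group, 16 in all. The sources used here give no dose, exposure time or culture age, and do not say whether the 4 libraries of a group are separate cultures, so each p measures only the spread between these libraries. No sorting of cells is described, so the cultures can hold whatever other cells survived beside the neurons.

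Microglia are the resident phagocytes of the brain. They depend on signalling through the colony-stimulating factor receptor Csf1r and on the transcription factors Spi1 (PU.1) and Irf8, survey neurons through the receptors Cx3cr1 and P2ry12, and clear debris through complement, Fc and lipid-sensing receptors into lysosomes. Cultures of newborn brain neurons commonly carry a small number of them. In RNA from a whole culture, fewer microglia and less microglial RNA per cell cannot be told apart. Neither can be told apart from a change in other cells that use the same gene. This holds for each difference given here.

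Libraries held 11642242 to 38254320 reads in genes, and values are normalized counts, that is reads divided by 1 size factor per library, in which 1 read was worth 0.536 to 1.71. Most members lay near the lower end of what this depth measures. A gene was tested where at least 10 normalized counts were reached in at least 4 of the libraries compared: 21 of the 37 members for NP24 against control, 24 for Tβ10 against control, 28 for Tβ4 against control and 30 between peptides. Neuron markers dominated all libraries, with summed levels of 63495 to 66597 normalized counts over 10 genes in NP24 cultures, 59677 to 68792 in Tβ10 cultures, 48517 to 65091 in Tβ4 cultures and 55143 to 60894 in control cultures. The share of reads in the 2 mitochondrial ribosomal RNAs differed between groups, at 7.15 ± 1.03% in NP24 cultures, 7.20 ± 1.96% in Tβ10 cultures, 15.3 ± 6.71% in Tβ4 cultures and 11.3 ± 2.07% in control cultures (SD, n = 4 each). Library 1 of the Tβ4 cultures stood apart, with 24.3% of its reads there. It also had the most genes with a read, 38072, where the other libraries had 29325 to 35139.

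Counting decides what several member values mean. In 1110 pairs in which 1 gene lies inside another without shared exons, and in which the inner gene held at least 1000 reads, the outer gene's count was at least that of the inner gene in all 16 libraries for each pair (100%), on opposite strands (593 pairs) as on the same strand (517 pairs). The deposited values therefore behave as counts over whole gene spans, introns included, without regard to strand and with a read given to every gene it overlaps. Of the 37 members, 9 have a span that overlaps another gene, and their reads in the shared part cannot be separated from that gene's. P2ry12 lies wholly inside Med12l, Irf8 wholly inside the long gene model Gm20388, and 99.9% of Itgam is shared with the gene model Gm49368, whose reads differed from those of Itgam by 0 to 23 per library. Cd52 shares 79.6% of its span with Crybg2, Cx3cr1 57.4% with several genes, Spp1 21.1% with Gm42793, Ptprc 5.20%, Csf1r 2.77% and Ctss 1.88%. The other 28 members overlap no other annotated gene, where very short genes were left out of the check.

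The 2 members with by far the highest values, Cx3cr1 and P2ry12, did not follow the rest. Cx3cr1 encodes the receptor for the neuronal chemokine fractalkine. It stood at 1303, 1382, 1379.7 and 1383 normalized counts in NP24 cultures, 1190.3, 1602, 1441 and 1363 in Tβ10 cultures, 1396, 1249, 1476 and 1493 in Tβ4 cultures and 1379, 1262, 1347 and 1229 in control cultures. All 4 groups overlapped within a narrow band, with log2 differences from control of 0.06 ± 0.10 (SE) for NP24 (limma, adjusted p = 0.794), 0.09 ± 0.12 for Tβ10 (adjusted p = 0.809) and 0.10 ± 0.11 for Tβ4 (adjusted p = 0.933). The annotated span of Cx3cr1, chr9:119901616-120069879 on the minus strand (GRCm38, GENCODE M21), is 168264 bases long against 4505 bases of exon. It holds Gorasp1, Ttc21a, Csrnp1 and Xirp1 whole and part of Wdr48. The 4 genes inside it summed to 25.7 to 36.0% of the Cx3cr1 value, and Cx3cr1 came to 83.1 to 101% of those 4 genes plus Wdr48 in every library. So its value in these tables cannot be read as the receptor's transcript.

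P2ry12, the purinergic receptor that guides microglial processes to sites of injury, had 309, 268, 268 and 336 normalized counts in NP24 cultures, 364, 295, 335 and 367 in Tβ10 cultures, 261, 499.6, 252 and 214 in Tβ4 cultures and 361, 294, 349 and 478 in control cultures. The groups overlapped, and the log2 differences from control were -0.31 ± 0.16 for NP24 (limma, adjusted p = 0.341), -0.11 ± 0.16 for Tβ10 (adjusted p = 0.859) and -0.33 ± 0.25 for Tβ4 (adjusted p = 0.887). Its span of 46600 bases is contained in Med12l, a Mediator subunit gene on the opposite strand, and P2ry12 stood at 9.98 to 19.99 for each 100 normalized counts of Med12l. Library 2 of the Tβ4 cultures was the highest of the 16 for both genes, at 499.6 for P2ry12 and 3513 for Med12l. Cx3cr1 and P2ry12 together made up 72.5 to 78.9% of the summed level of the 37 members in NP24 and Tβ10 cultures, 31.8 to 60.5% in Tβ4 cultures and 51.1 to 58.6% in control cultures, so sums are given for the other 35 members, a choice made after the values were seen.

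**Figure D1:**
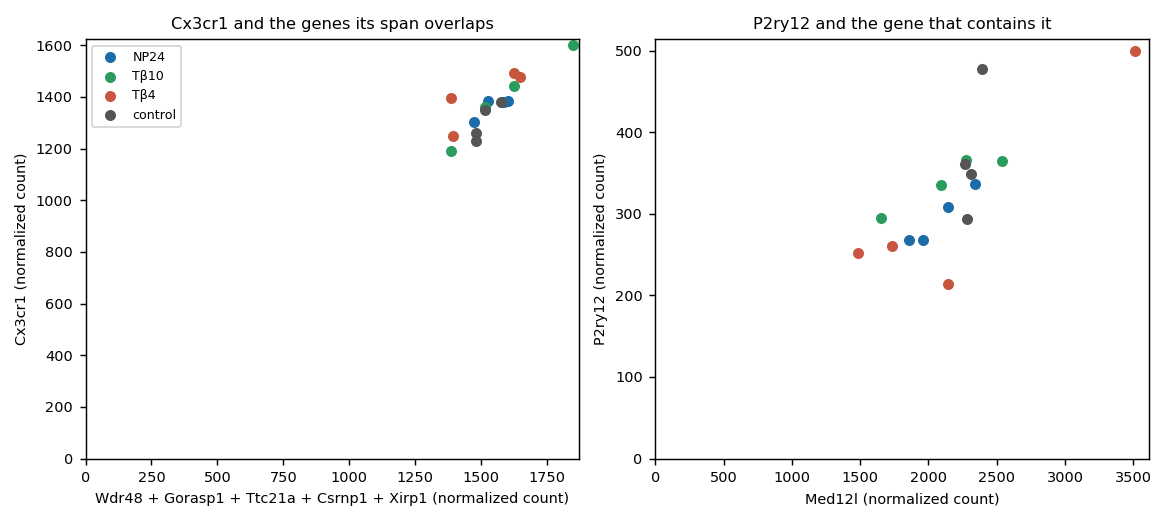
Normalized counts of Cx3cr1 against the summed level of Wdr48, Gorasp1, Ttc21a, Csrnp1 and Xirp1 (left) and of P2ry12 against Med12l (right), 1 point per library, coloured by group. The 4 groups lie mixed along 1 band in the left panel, and library 2 of the Tβ4 cultures is the point at the upper right of the right panel.

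Summed over the other 35 members, the level was lowest in NP24 and Tβ10 cultures. The sums of libraries 1 to 4 were 471, 501, 541 and 544 normalized counts in NP24 cultures, 416, 628, 618 and 657 in Tβ10 cultures, 3547, 1140.0, 1823 and 1712 in Tβ4 cultures and 1664, 1112, 1201 and 1257 in control cultures. Each NP24 and each Tβ10 library lay below each control library, and the Tβ4 libraries overlapped the control. The log2 ratio of the mean of the sum to control was -1.35 for NP24, -1.17 for Tβ10 and 0.65 for Tβ4, given as a description with no test. Library 1 of the Tβ4 cultures was the highest of all 16 for 30 of the 35 members. It was also the one with the most genes with a read and the largest mitochondrial ribosomal RNA share. The mean share, like the sum, was lower in NP24 and Tβ10 cultures and higher in Tβ4 cultures than in control cultures, and its part in the differences was examined only by entering it as a covariate.

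**Figure D2:**
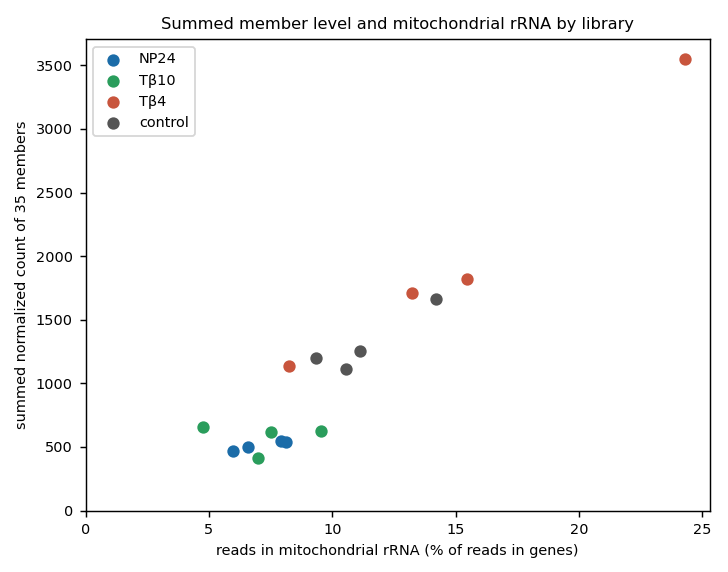
Summed normalized count of 35 members (without Cx3cr1 and P2ry12) against the percentage of reads in mitochondrial ribosomal RNA, 1 point per library. NP24 and Tβ10 libraries lie between 416 and 657 on the vertical axis, control libraries between 1112 and 1665, and library 1 of the Tβ4 cultures lies alone at 3547.

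Against control, NP24 cultures had lower levels of 7 of the 21 tested members and higher levels of 0 at an adjusted p under 0.05, where 1.47% of all 21774 tested genes were lower and 1.16% higher. The 7 were Spp1, Lyz2, Laptm5, Ctss, Cd68, Lgals3 and Myo1f, most of them genes of lysosomes and phagocytosis. No NP24 library reached 10 normalized counts of Spp1, so it was tested only through the control. In 10 of the 21 members each NP24 library lay below each control library, which held for 4.77% of all tested genes, and in 0 each lay above, against 5.07% of genes. The log2 difference was negative for 19 of the 21, with a median of -1.28 over the members and -0.00 over all tested genes. Tβ10 cultures had lower levels of 3 of 24 tested members (Lyz2, Cd68 and Myo1f) and higher levels of 0, where 0.533% of 21960 genes were lower and 0.1% higher. In 8 of the 24 the groups did not overlap and Tβ10 was lower, against 3.95% of genes, and in 0 it was higher, against 2.96%. Here 20 of 24 differences were negative, with a median of -0.98 and of -0.00 over all tested genes. NP24 and Tβ10 were set against the same 4 control libraries, so these 2 sets of calls are not independent. Scaling to library size in place of the authors' size factors left the NP24 member calls at 7 lower and 0 higher, while over all genes it gave 508 higher and 256 lower in place of 253 higher and 319 lower. For Tβ10 it gave 1 member lower, and 55 genes higher and 67 lower in place of 22 higher and 117 lower.

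**Figure D3:**
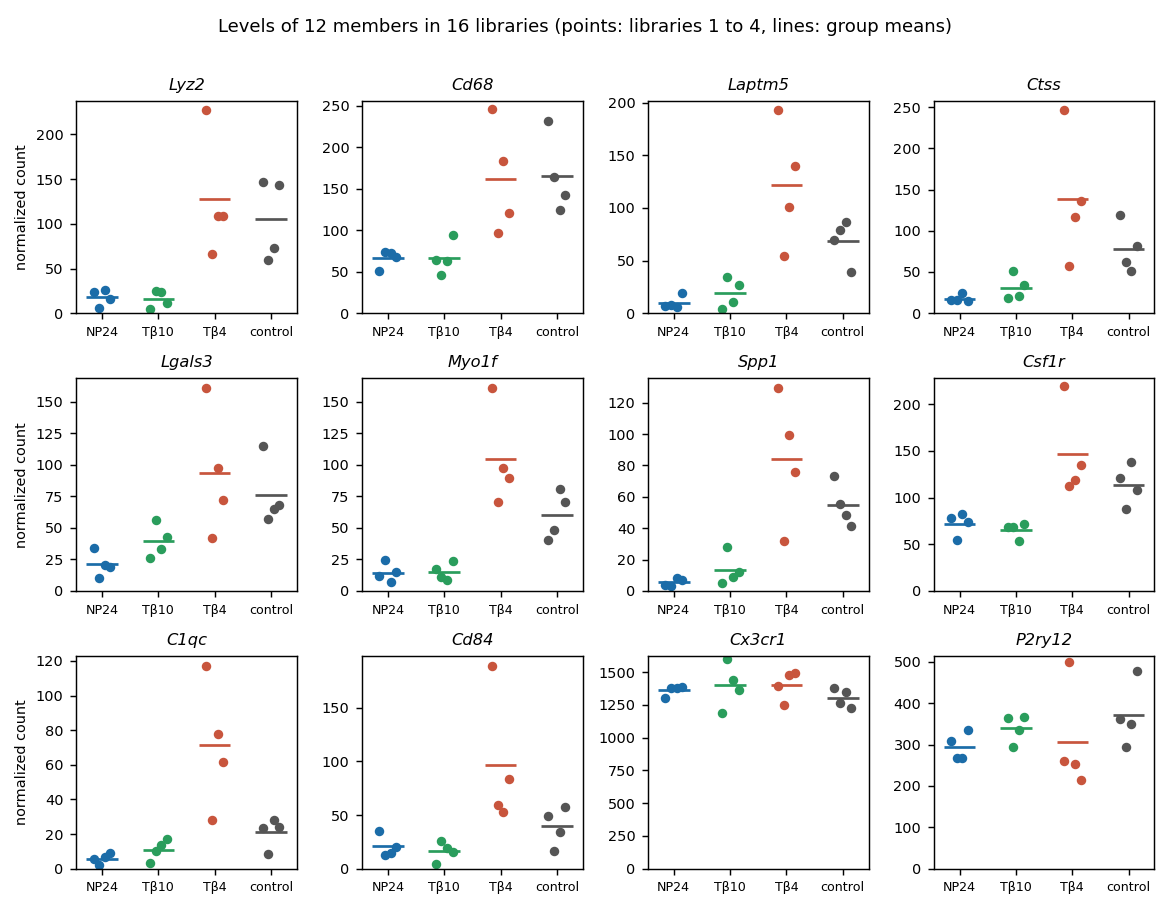
Normalized counts of 12 members, 1 panel each, with 1 point per library and a line at the group mean, for NP24, Tβ10, Tβ4 and control cultures. In the panels of Lyz2, Cd68 and Myo1f the NP24 and Tβ10 points lie below the control points, and in the panels of Cx3cr1 and P2ry12 the 4 groups overlap.

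Of 6 tested members of lysosomes and phagosomes, 5 were lower with NP24 and 2 with Tβ10. Of all tested genes 1.47% and 0.533% were. These 6 had means of 54.9 to 124 normalized counts over the 16 libraries, above most other tested members. Irf8, Itgam and C1qb, with means of 25.0, 32.4 and 30.8, had larger NP24 differences than Cd68 but were not called. Whether the calls go with the role or with the level was not tested. Lyz2, the lysozyme that digests bacterial cell walls, had 24.1, 6.40, 25.5 and 16.01 normalized counts in NP24 cultures, 4.82, 24.4, 23.4 and 11.9 in Tβ10 cultures, 227, 65.9, 109 and 109 in Tβ4 cultures and 146, 59.9, 73.3 and 143 in control cultures. NP24 and Tβ10 cultures lay below all control cultures, 5.83-fold lower for NP24 (log2 difference -2.54 ± 0.45, SE, on the scale of log2(value + 1); limma, adjusted p = 0.00413) and 6.74-fold lower for Tβ10 (-2.75 ± 0.48, adjusted p = 0.00932), while the Tβ4 and control cultures overlapped. Cd68, a glycoprotein of phagocyte lysosomes, had 50.95, 73.5, 73.04 and 67.6 normalized counts in NP24 cultures, 63.8, 46.6, 63.1 and 93.8 in Tβ10 cultures, 246, 96.5, 183 and 121 in Tβ4 cultures and 232, 164, 124 and 143 in control cultures. Its groups separated in the same way, with log2 differences of -1.28 ± 0.26 for NP24 and -1.30 ± 0.27 for Tβ10 (adjusted p = 0.00973 and 0.0341).

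Laptm5, a lysosomal membrane protein of blood-derived cells, had 6.49, 7.46, 5.80 and 19.6 normalized counts in NP24 cultures, 4.29, 34.4, 10.8 and 27.3 in Tβ10 cultures, 193, 54.5, 101 and 139.6 in Tβ4 cultures and 69.7, 78.6, 87.04 and 39.1 in control cultures. All NP24 and Tβ10 libraries were below all control libraries, and NP24 passed the test (log2 difference -2.78 ± 0.50, adjusted p = 0.0045) where Tβ10 did not (-2.08 ± 0.53, adjusted p = 0.0904). Ctss, the lysosomal protease cathepsin S, had 15.7, 15.99, 24.3 and 14.2 normalized counts in NP24 cultures, 18.8, 51.03, 20.7 and 34.1 in Tβ10 cultures, 246, 56.8, 117 and 136 in Tβ4 cultures and 119, 61.8, 50.8 and 81.7 in control cultures. It was lower with NP24 (-2.05 ± 0.41, adjusted p = 0.00857), and 1 Tβ10 library, at 51.0, reached above the lowest control library (-1.34 ± 0.39, adjusted p = 0.148). Lgals3, galectin-3, a sugar-binding protein of phagosomes, had 34.3, 10.7, 20.9 and 18.7 normalized counts in NP24 cultures, 26.3, 56.6, 33.3 and 42.6 in Tβ10 cultures, 161, 42.01, 97.2 and 72.2 in Tβ4 cultures and 115, 57.1, 65.3 and 67.8 in control cultures. NP24 cultures were 3.63-fold lower (log2 difference -1.86 ± 0.42, adjusted p = 0.02). The Tβ10 cultures also stayed below every control culture, with a difference that did not pass (-0.93 ± 0.34, adjusted p = 0.294).

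Mpeg1, the pore-forming perforin-2 of macrophages, had 73.2, 112, 91.6 and 91.6 normalized counts in NP24 cultures, 80.9, 99.8, 114 and 83.6 in Tβ10 cultures, 180.5, 131, 163 and 163 in Tβ4 cultures and 146, 144, 143 and 169.5 in control cultures. NP24 and Tβ10 libraries did not overlap with the control, yet the difference was small and passed in neither comparison (-0.72 ± 0.23 for NP24, adjusted p = 0.0943; -0.68 ± 0.22 for Tβ10, adjusted p = 0.204). The called genes outside the lysosome were Myo1f and Spp1. Myo1f, a myosin of the cell cortex of immune cells, had 12.04, 24.5, 6.96 and 15.1 normalized counts in NP24 cultures, 17.7, 11.1, 9.01 and 23.9 in Tβ10 cultures, 161, 70.4, 97.2 and 89.9 in Tβ4 cultures and 40.2, 48.7, 80.6 and 70.4 in control cultures. Both peptides lay below the control throughout (-2.03 ± 0.47 for NP24, adjusted p = 0.0239; -1.93 ± 0.44 for Tβ10, adjusted p = 0.0498). Spp1, the secreted phosphoprotein osteopontin, had 3.71, 3.20, 8.12 and 7.12 normalized counts in NP24 cultures, 5.36, 27.7, 9.01 and 11.9 in Tβ10 cultures, 129, 31.8, 99.3 and 75.7 in Tβ4 cultures and 73.2, 55.2, 48.4 and 41.7 in control cultures. It showed the largest fold among the members tested against control, 8.81-fold lower with NP24 (-3.14 ± 0.55, adjusted p = 0.00348), but no NP24 library reached 10 normalized counts, so it entered the test only through the control. With Tβ10 its difference of -2.13 ± 0.49 just missed the threshold (adjusted p = 0.0556).

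**Figure D4:**
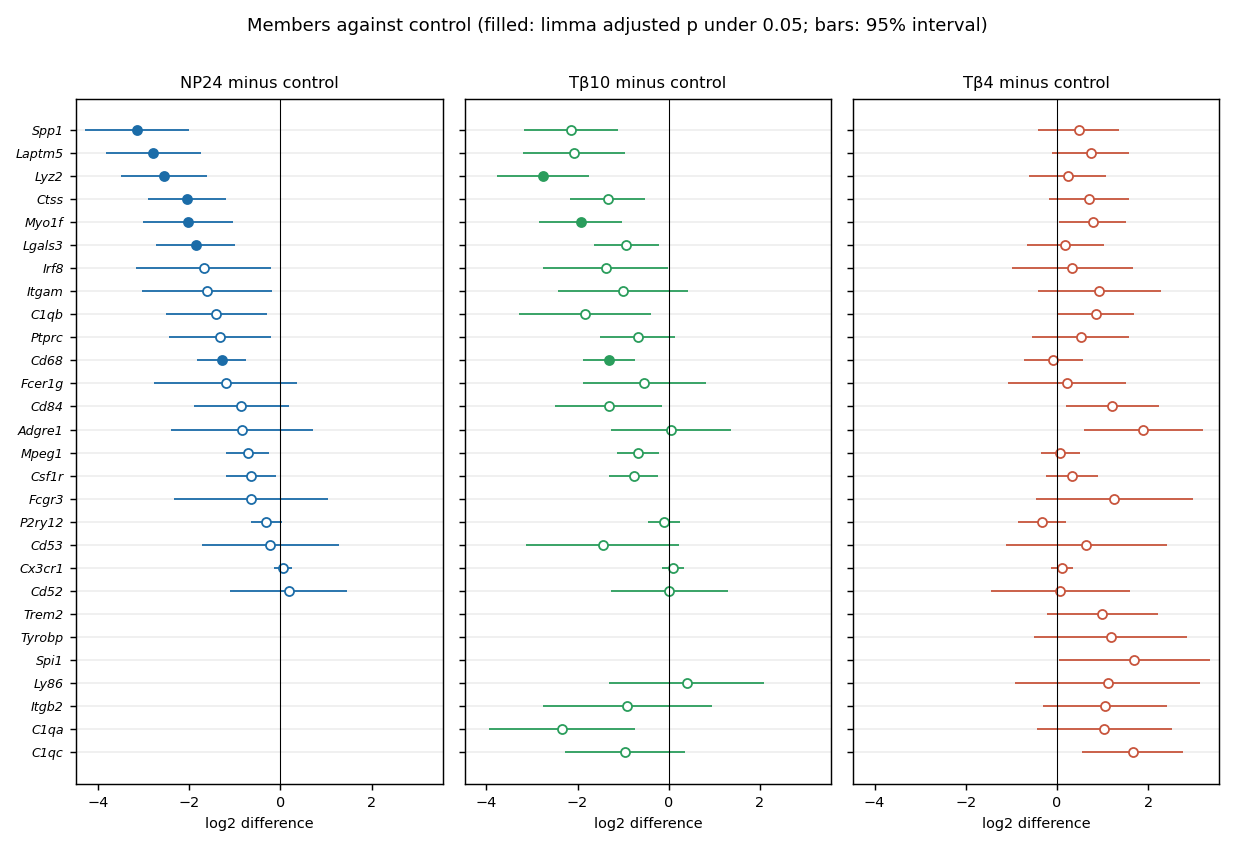
Log2 differences (NP24, Tβ10 and Tβ4, each minus control) of the members tested, with 95% intervals; filled points have a limma adjusted p under 0.05. NP24 has 7 filled points and Tβ10 has 3, all left of 0, and Tβ4 has 0 filled points, with 26 of 28 right of 0.

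The number of calls changed when single libraries were left out and when the mitochondrial ribosomal RNA share was entered. Without control library 1, which had the highest member sum of the control, 1 member was called for NP24, Laptm5, and 106 genes in all in place of 572. Without control library 1 or 4 no member was called for Tβ10 (limma; 9 and 12 members had an unadjusted p under 0.05), and 28 and 51 genes were called in all in place of 139. Laptm5 passed without each of the 8 libraries in turn. Of the NP24 libraries only library 4, at 19.6, reached 10 normalized counts of it. Without that library Laptm5 was tested only through the control. Without any 1 control library it was tested only because of NP24 library 4. These passes therefore do not show that its call is stable. Spp1 passed in the 4 fits with 1 library left out that could test it. Each of those kept all control libraries, through which alone it was tested, so they do not show that its call is stable. With the mitochondrial ribosomal RNA share as a covariate 0 members and 0 genes passed for NP24 (limma; 4 members and 1002 genes at an unadjusted p under 0.05) and 0 members and 0 genes for Tβ10 (6 members and 1791 genes). The NP24 difference of Laptm5 was then -2.71, that of Myo1f -2.88 and that of Cd68 -0.57, each with adjusted p = 0.991. The authors' deposited table lists 9 of 32 members as lower with NP24 at its own adjusted p under 0.05, the 7 above plus C1qa and Mpeg1, where 1.05% of its 27788 genes were lower and 0.421% higher. The authors' deposited table lists 5 of 30 as lower with Tβ10, with Laptm5 and Spp1 added to the 3, where 0.848% of 23459 genes were lower and 0.273% higher. For Tβ4 the authors' deposited table lists 0 of 32 members in either direction, where 0.14% of 28651 genes were lower and 0.429% higher.

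Short upstream sequences were examined for all members, called or not. Promoter windows, mostly upstream of the start site and of equal length, from RefSeq (GRCm38.p6), were found for 27 of the 37 members. The octamer GAGGAAGT, a core bound by PU.1, was present on either strand in 4 of these (14.8%), against 3.69% of 27025 gene promoters. The composite element of ETS and IRF factors was present in 1 (3.70%, against 3.16%), and the E-box CACGTG in 2 (7.41%, against 8.09%). The 4 windows with the octamer are shown in part because they include 2 of the 7 genes lower with NP24, Ctss and Spp1, and 2 that were not called for NP24 against control, C1qc, which was not tested there, and Cd53. Capitals mark the octamer, which reads ACTTCCTC where it lies on the other strand. A match is only a match of letters.
C1qc, chr4:136893052-136893159, minus strand: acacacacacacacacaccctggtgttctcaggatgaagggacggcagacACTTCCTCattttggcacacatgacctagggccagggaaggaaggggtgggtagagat
Cd53, chr3:106790136-106790193, minus strand: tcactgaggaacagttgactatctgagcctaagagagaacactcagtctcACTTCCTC
Ctss, chr3:95526734-95526799, plus strand: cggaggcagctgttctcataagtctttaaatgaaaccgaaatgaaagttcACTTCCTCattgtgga
Spp1, chr5:104434948-104435055, plus strand: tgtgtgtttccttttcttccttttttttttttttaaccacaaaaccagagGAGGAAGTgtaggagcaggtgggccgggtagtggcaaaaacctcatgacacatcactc
Counted from the start site of the window shown, the octamer began at position -195 in C1qc, -113 in Spp1, -2 in Ctss and 6 in Cd53. A gene was counted where any of its windows held the motif. Spp1 has a further window, for another start site, without the octamer.

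Csf1r, the receptor tyrosine kinase on which microglia depend, was present in every library. Its level was 75.8 (median; 54.4 to 82.3) normalized counts in NP24 cultures, 68.4 (54.04 to 71.6) in Tβ10 cultures, 127 (112 to 219) in Tβ4 cultures and 114 (88.01 to 138) in control cultures. NP24 and Tβ10 libraries lay below all control libraries, but by less than the test required (-0.65 ± 0.27, adjusted p = 0.209 for NP24; -0.77 ± 0.25, adjusted p = 0.219 for Tβ10). Cd84, an adhesion receptor of the SLAM family, had 35.2, 12.8, 15.1 and 20.5 normalized counts in NP24 cultures, 4.29, 25.5, 19.8 and 15.3 in Tβ10 cultures, 189, 59.04, 53.1 and 83.99 in Tβ4 cultures and 49.6, 16.9, 33.8 and 57.4 in control cultures. It overlapped the control in both (-0.85 ± 0.50, adjusted p = 0.409 for NP24; -1.32 ± 0.56, adjusted p = 0.379 for Tβ10). Adgre1, the macrophage receptor F4/80, stood at 3.71 to 14.2 normalized counts in NP24 cultures, 11.9 to 19.8 in Tβ10 cultures, 40.9 to 106 in Tβ4 cultures and 3.48 to 30.7 in control cultures. Against control its differences were -0.84 ± 0.75 for NP24 and 0.05 ± 0.63 for Tβ10 (adjusted p = 0.624 and 0.986).

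The integrin chains of complement receptor 3, Itgam and Itgb2, were low and uneven. Itgam stood at 1.85 to 19.2 normalized counts in NP24 cultures, 2.14 to 27.02 in Tβ10 cultures, 22.5 to 162 in Tβ4 cultures and 13.1 to 70.4 in control cultures, values that are also those of Gm49368, and Itgb2 at 0 to 13.9 in NP24 cultures, 0 to 20.7 in Tβ10 cultures, 16.6 to 62.2 in Tβ4 cultures and 5.62 to 28.4 in control cultures. For NP24 the Itgam difference was -1.61 ± 0.69 (limma, adjusted p = 0.227), and Itgb2 did not reach the level for testing. Mrc1, the mannose receptor of border macrophages, had 0 to 13.9 normalized counts in NP24 cultures, 0 to 18.8 in Tβ10 cultures, 8.28 to 133 in Tβ4 cultures and 0.936 to 7.09 in control cultures, and was likewise untested against control. Ly86, a partner of an endotoxin receptor, had 0.926 to 16.01 in NP24 cultures, 2.14 to 27.3 in Tβ10 cultures, 2.37 to 75.6 in Tβ4 cultures and 1.74 to 20.1 in control cultures.

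The 3 chains of complement C1q, which tags synapses and debris for removal and in brain is made largely by microglia, are encoded side by side on chr4 between 136880129 and 136898803 on the minus strand. C1qb had 18.5, 9.59, 5.80 and 17.8 normalized counts in NP24 cultures, 1.07, 16.6, 6.31 and 28.99 in Tβ10 cultures, 95.1, 36.3, 64.1 and 59.1 in Tβ4 cultures and 28.4, 32.8, 45.9 and 26.95 in control cultures. NP24 libraries lay below all control libraries and Tβ10 libraries overlapped them (-1.41 ± 0.53, adjusted p = 0.171 for NP24; -1.84 ± 0.69, adjusted p = 0.296 for Tβ10). C1qc stood at 2.13 to 8.89 normalized counts in NP24 cultures, 3.22 to 17.1 in Tβ10 cultures, 28.4 to 117 in Tβ4 cultures and 8.43 to 28.2 in control cultures. C1qa stood at 0 to 8.12 normalized counts in NP24 cultures (10 reads over the 4 libraries), 1.11 to 11.9 in Tβ10 cultures (16 reads), 11.4 to 130.5 in Tβ4 cultures (233 reads) and 7.49 to 39.1 in control cultures (107 reads). Too few NP24 and control libraries reached 10 normalized counts of C1qa, so it was not tested for NP24, and the authors' deposited table gives it a log2 fold change of -3.25 with an adjusted p of 0.0221.

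Trem2, a lipid-sensing receptor, signals through the adaptor Tyrobp, and Fc receptors through Fcer1g. Fcer1g had 6.49, 22.4, 16.2 and 1.78 normalized counts in NP24 cultures, 5.90, 16.6, 13.5 and 28.99 in Tβ10 cultures, 17.1, 27.3, 23.4 and 33.1 in Tβ4 cultures and 47.3, 23.4, 5.64 and 28.7 in control cultures. Its groups overlapped (-1.20 ± 0.75, adjusted p = 0.449 for NP24; -0.53 ± 0.64, adjusted p = 0.805 for Tβ10). The Fc receptor gene Fcgr3 had 6.49, 13.9, 2.32 and 15.1 normalized counts in NP24 cultures, 1.07, 0, 8.11 and 0 in Tβ10 cultures, 92.7, 9.08, 41.4 and 27.2 in Tβ4 cultures and 47.3, 16.9, 8.06 and 3.48 in control cultures. It spread widely within every group, and for NP24 the difference was -0.64 ± 0.81 (limma, adjusted p = 0.748). Trem2 stood at 0 to 12.8 normalized counts in NP24 cultures, 1.71 to 7.77 in Tβ10 cultures, 19.3 to 60.97 in Tβ4 cultures and 8.69 to 33.1 in control cultures, and Tyrobp at 0 to 10.7 in NP24 cultures, 1.71 to 13.5 in Tβ10 cultures, 19.3 to 45.1 in Tβ4 cultures and 1.74 to 36.5 in control cultures. Neither reached the level for testing with NP24 or Tβ10 against control.

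The lineage transcription factors were low. Irf8 had 14.8, 1.07, 10.4 and 16.01 normalized counts in NP24 cultures, 12.3, 2.22, 18.01 and 17.1 in Tβ10 cultures, 93.9, 13.6, 34.5 and 34.3 in Tβ4 cultures and 51.98, 18.7, 48.4 and 12.2 in control cultures. It overlapped between all groups (-1.68 ± 0.72, adjusted p = 0.226 for NP24; -1.38 ± 0.66, adjusted p = 0.445 for Tβ10). Spi1 stood at 1.78 to 13.9 normalized counts in NP24 cultures, 0 to 8.11 in Tβ10 cultures, 16.6 to 70.7 in Tβ4 cultures and 1.74 to 28.1 in control cultures. Ptprc, the leukocyte phosphatase CD45, had 5.56, 11.7, 27.8 and 36.5 normalized counts in NP24 cultures, 20.9, 24.4, 36.9 and 23.9 in Tβ10 cultures, 146, 57.9, 22.8 and 70.98 in Tβ4 cultures and 50.8, 28.1, 38.7 and 57.4 in control cultures. Its NP24 and control libraries overlapped (-1.32 ± 0.54, adjusted p = 0.207). The tetraspanin gene Cd53 stood at 5.33 to 21.3 normalized counts in NP24 cultures and 2.61 to 38.98 in control cultures, and Cd52, a small glycoprotein of leukocytes, at 14.8 to 15.99 in NP24 cultures and 4.68 to 26.6 in control cultures. Cd52 shares most of its span with Crybg2, which had 15.3 ± 1.55 normalized counts in NP24 cultures and 13.96 ± 7.96 in control cultures (SD, n = 4 each).

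Low values kept 7 members out of every comparison. Tmem119, a marker of resident microglia, had 3 reads in all NP24 libraries together, 0 in the Tβ10 libraries, 21 in the Tβ4 libraries and 2 in the control libraries. Siglech, a sialic acid-binding lectin of microglia, had 0 reads in the NP24 libraries, 8 in the Tβ10 libraries, 17 in the Tβ4 libraries and 2 in the control libraries. The chemokine genes Ccl3 and Ccl4 had 18 and 2 reads over all 16 libraries, the endotoxin co-receptor Cd14 had 28, the pattern receptor Tlr2 had 54 and the Fc receptor Fcgr1 had 128. Library 1 of the Tβ4 cultures was the highest for Fcgr1, at 43.9 normalized counts, and for Siglech and Tlr2, at 18.3 each. Aif1 (Iba1), the usual stain for microglia, was tested only between peptides and stood at 4.26 to 12.8 normalized counts in NP24 cultures, 0 to 2.68 in Tβ10 cultures, 6.81 to 20.1 in Tβ4 cultures and 3.48 to 18.9 in control cultures. Per kilobase of gene span the control level was highest for Cd68 (85.3 normalized counts per kb), Mpeg1 (33.5) and Lyz2 (21.2), and Tmem119 had 0.087.

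Tβ4 cultures, set against the same control libraries, gave no call. Of 28 tested members 0 were lower and 0 higher at an adjusted p under 0.05, as were 0% of all 22205 genes (limma; 6 members and 1568 genes at an unadjusted p under 0.05). Neither edgeR nor DESeq2 called a member here, and they called 0 and 75 genes. The differences were positive for 26 of 28 members, or 24 of 28 with scaling to library size, with a median of 0.72 and of -0.00 over all tested genes. For 2 members, C1qc and Adgre1, each Tβ4 library lay above each control library, as for 2.26% of all genes, and for 0 members each lay below, as for 2.17%. C1qc had a log2 difference of 1.66 ± 0.52 with a 95% interval of 0.55 to 2.77 (adjusted p = 0.483), and Adgre1 one of 1.90 ± 0.60 with an interval of 0.60 to 3.20 (adjusted p = 0.488). Cd68 and Lyz2 were close to the control, at -0.09 ± 0.30 and 0.23 ± 0.39. Without library 2 of the Tβ4 cultures, the one with the lowest member sum of that group, 1 member, C1qc, was higher at adjusted p = 0.0462, and 354 genes were called.

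The peptides were then set against each other in 1 fit of all 16 libraries, which called more members for the pairs with Tβ4 than a fit of the 8 libraries concerned (14 against 7 for NP24 against Tβ4, and 12 against 2 for Tβ4 against Tβ10). The doses are not given in the sources used here, so it is not known whether these were matched. NP24 cultures had lower levels than Tβ4 cultures for 14 of 30 tested members and higher levels for 0, where 1.65% of 24232 genes were lower and 0.442% higher. They were Spp1, Myo1f, Ctss, Laptm5, C1qc, Lyz2, C1qa, Lgals3, Adgre1, Cd68, Trem2, Csf1r, Cd84 and Mpeg1. In 19 of the 30 members each NP24 library lay below each Tβ4 library, as for 4.65% of genes, and in 0 above, as for 2.89%. The median difference was -2.05, against -0.01 over all genes. For 3 of the 14, C1qa, Spp1 and C1qc, no NP24 library reached 10 normalized counts, so they entered the test only through groups in which they were higher, and their differences are no ranking. They are also among the 19 and enter the median, so both values are in part set by the filter. C1qa differed by -4.10 ± 0.82 (95% interval -5.81 to -2.39, adjusted p = 0.0115), Spp1 by -3.61 ± 0.52 (adjusted p = 0.00079) and Laptm5 by -3.52 ± 0.55 (adjusted p = 0.00184). Csf1r, with 77.8, 54.4, 82.3 and 73.8 normalized counts in NP24 cultures and 219, 112, 119 and 135 in Tβ4 cultures, differed by -0.98 ± 0.25 (adjusted p = 0.0474).

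Tβ4 cultures had higher levels than Tβ10 cultures for 12 of 30 members and lower levels for 0, where 1.05% of genes were higher and 0.297% lower. They were Myo1f, Lyz2, Laptm5, Spp1, Ctss, Cd84, Fcgr3, C1qc, Csf1r, C1qb, C1qa and Cd68. In 17 members each Tβ4 library lay above each Tβ10 library, as for 4.02% of genes, and in 0 below, as for 2.57%. Fcgr3 differed by 3.97 ± 0.88 (adjusted p = 0.0254), but no Tβ10 library reached 10 normalized counts of it, so it too was tested only through groups in which it was higher. The same holds for Trem2, Spi1 and Aif1, which were not called. These 4 members are among the 17 and enter the median, so both values are in part set by the filter. C1qc, with 117, 28.4, 77.9 and 61.5 normalized counts in Tβ4 cultures and 3.22, 9.98, 13.5 and 17.1 in Tβ10 cultures, differed by 2.62 ± 0.59 (adjusted p = 0.0289). The median difference was 2.00, against 0.00 over all genes. Scaling to library size moved the median of all genes to 0.13 for NP24 against Tβ4 and to -0.18 for Tβ4 against Tβ10, with 10 members called in each. It gave 363 genes higher and 269 lower in place of 107 higher and 400 lower for NP24 against Tβ4, and 165 higher and 449 lower in place of 254 higher and 72 lower for Tβ4 against Tβ10. Both contrasts lean on 1 library: without library 1 of the Tβ4 cultures, 6 members and 104 genes were called for NP24 against Tβ4, in place of 14 and 507, and 2 members and 87 genes for Tβ4 against Tβ10, in place of 12 and 326. With the mitochondrial ribosomal RNA share as a covariate 0 members passed in either (limma; 11 and 10 members at an unadjusted p under 0.05).

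NP24 and Tβ10 cultures differed in 0 of 30 members and in 0% of 24232 genes (limma; 3 members and 591 genes at an unadjusted p under 0.05; edgeR and DESeq2 also called 0 genes). That does not show equal levels. The 95% interval of the NP24 minus Tβ10 difference was -0.60 to 0.63 on the log2 scale for Cd68, -0.87 to 1.29 for Lyz2, -1.86 to 0.45 for Laptm5 and -2.08 to 0.08 for Spp1. The groups did not overlap for 1 member, Aif1, as for 0.755% of genes higher with NP24. It had 4.63, 4.26, 12.8 and 7.12 normalized counts in NP24 cultures and 2.68, 0, 1.80 and 1.71 in Tβ10 cultures (1.72 ± 0.74, limma, adjusted p = 0.9998). No Tβ10 library reached 10 normalized counts of Aif1, which had 8 reads there in all. It was thus tested only through groups in which it was higher, and its separation is no support for a difference. Without overlap, 0 members and 1.35% of genes were lower.

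**Figure D5:**
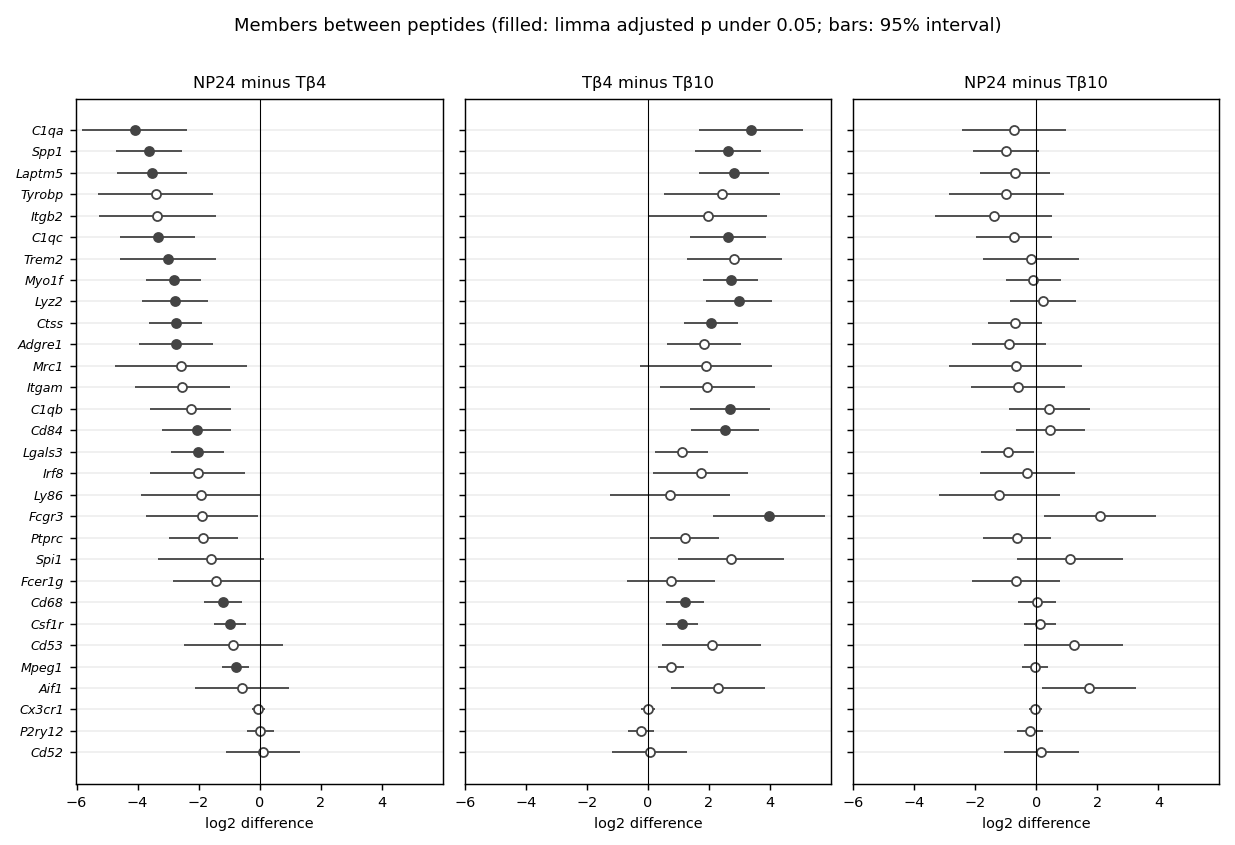
Log2 differences between peptides (NP24 minus Tβ4, Tβ4 minus Tβ10, NP24 minus Tβ10) of 30 members, with 95% intervals; filled points have a limma adjusted p under 0.05. NP24 minus Tβ4 has 14 filled points left of 0, Tβ4 minus Tβ10 has 12 right of 0 and NP24 minus Tβ10 has 0.

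Other genes of the same biology were read from lists that hold no member. Of all tested genes, 1.47% were lower and 1.16% higher with NP24, and 0.533% lower and 0.1% higher with Tβ10. These shares stand beside each list count below. Core microglia and myeloid genes had a median log2 difference from control of -0.63 for NP24 over 20 tested genes, with 0 higher, of -0.54 for Tβ10 (0 of 20 called in either direction) and of 0.35 for Tβ4 (0 of 23 called). Genes of phagocyte activation and lipid handling had a median log2 difference of -0.27 for NP24, with 3 of 16 positive. For Tβ10 it was -0.31, with 2 of 15 positive. Of these genes, 4 were called lower with NP24 and 3 with Tβ10, and 0 higher with either. Among them was Gpnmb, a glycoprotein of phagocyte lysosomes, at 53.2 ± 21.5 normalized counts in NP24 cultures, 39.5 ± 18.6 in Tβ10 cultures and 462 ± 109.6 in control cultures (log2 difference -3.14, adjusted p = 3.96e-07 for NP24; -3.63, adjusted p = 4.32e-05 for Tβ10). Cathepsin D (Ctsd), at 757 ± 142 in NP24 cultures and 1684 ± 402 in control cultures, was the other large one (-1.15, adjusted p = 0.000318), and Cd63 and Cd9 completed the NP24 calls. Of 6 tested antigen presentation genes, 3 were lower with NP24 (B2m, H2-K1 and H2-D1, at -1.46, -1.63 and -0.78) and 0 with Tβ10.

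Border macrophage genes (0 of 3), inflammatory cytokines and enzymes (0 of 3) and signals to microglia (0 of 8) held no NP24 call, and 0 were called in these lists for Tβ10 or Tβ4. Csf1, a ligand of Csf1r, had 165 ± 10.03 normalized counts in NP24 cultures and 246 ± 26.5 in control cultures, without overlap (-0.57, adjusted p = 0.0876). Some markers of fibroblasts and pericytes were also called lower with NP24 and Tβ10 than in control cultures, while no astrocyte marker was called lower. Of 8 astrocyte markers, 3 had a negative difference with NP24 and 1 with Tβ10. Of 5 tested fibroblast markers 4 were lower with NP24 and 3 with Tβ10, for example Col3a1, a fibrillar collagen, at 9.53 ± 5.87 in NP24 cultures and 94.5 ± 35.9 in control cultures (-3.29, adjusted p = 0.00116). The 7 fibroblast markers summed to 76.5 to 149 normalized counts in NP24 cultures, 94.9 to 178 in Tβ10 cultures, 534 to 2371 in Tβ4 cultures and 389 to 513 in control cultures. Endothelial and pericyte markers, 9 in all, summed to 246 to 319 in NP24 cultures, 214 to 314 in Tβ10 cultures, 740.3 to 1871 in Tβ4 cultures and 391 to 637 in control cultures. Only Pdgfrb and Rgs5, both of pericytes, were called lower with NP24 and with Tβ10. Endothelial markers were mixed. In NP24, Tβ10 and control cultures Pecam1 had means of 66.3, 30.9 and 69.4 and Tek of 38.3, 40.4 and 24.2. Those of Flt1 were 16.8, 27.7 and 45.0. The 15 markers of other blood cells summed to 2.78 to 36.5 in NP24 cultures, 12.2 to 39.2 in Tβ10 cultures, 27.3 to 155 in Tβ4 cultures and 16.9 to 43.7 in control cultures, and 0 of them reached the level for testing. Of neuron markers 1 of 10 was higher with NP24 (Syn1, 0.40), of astrocyte markers 1 of 8 (Aqp4, 1.70; 5 of 8 differences were positive), and of oligodendrocyte lineage markers 2 of 9 were lower (Mbp and Olig2). The part of these cell types in the member differences was not tested.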

How the data were processed

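Total RNA of cultured neurons was purified on RNeasy Micro columns and made into SMARTer Stranded Total RNA-Seq libraries, per the labels' protocols. The tools named in the submitters' processing notes are FastQC, HISAT and HISAT2, featureCounts and DESeq2, all without versions, and the build is GRCm38; strand setting and annotation release are not given in the sources used here. The authors deposited 3 tables with the same 16 libraries (values differ by at most 4.9e-07 in relative size) as signal, gene counts divided by 1 size factor per library. They also deposited log2 fold changes, p-values and a test statistic (a score), which are used here only where their table is named.

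Reads were recovered from the deposited values (100% whole at a tolerance of 0.01 reads). The test was limma-trend (limma 3.58.1, R 4.3.3) on log2(value + 1), restricted to genes that reached 10 normalized counts in 4 or more libraries of the fit. P-values were adjusted by Benjamini-Hochberg over every gene tested, at a threshold of 0.05. Each peptide was set against control in a fit of 8 libraries, and peptides against each other in 1 fit of 16. The unit is normalized, so this test replaced the count test that was planned for unnormalized values. The recovered reads were also tested with edgeR 4.0.16 and DESeq2 1.42.0. Fits were tested on simulated data.

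Positions are from GENCODE M21, in which 45045 gene identifiers matched with their version, and promoters are from RefSeq (GRCm38.p6). Replicate numbers are not stated to pair libraries across groups. Members, lists and tests were chosen with earlier results of these data known. Values by library were given for members called against control and for the highest member of each role, of other lists up to 4 genes with the smallest p were eligible for naming, and other values were chosen after they were seen. The calls of the core microglia and myeloid list that were lower with NP24 are not reported here.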

Additional observations from a re-analysis of the deposited data

Results flagged for a closer look

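In each group of 4 libraries the highest and the lowest value were set against the rest by the ratio of their gap to the group's range. Of 128 such groups (the 30 members tested in any comparison, the sum of all 37 and the sum of 35, in each of the 4 groups), 10 held a library past Dixon's 95% critical value, where chance gives about 1 in 20. Library 1 of the Tβ4 cultures gave 3 of them: it was high for Mrc1 at 132.9 normalized counts (the others 8.28 to 26.2), for Adgre1 at 106.1 (40.9 to 44.8) and for Spi1 at 70.7 (16.6 to 18.6). Library 2 of the Tβ4 cultures was high for P2ry12 at 499.6 (214 to 261). Among NP24 cultures, library 4 was high for Laptm5 at 19.6 (5.80 to 7.46), library 3 was high for Itgb2 at 13.9 (0 to 1.78), and library 1 was low for Cx3cr1 at 1303 (1379.7 to 1383). Among Tβ10 cultures, library 3 was high for Fcgr3 at 8.11 (0 to 1.07), and library 1, the most deeply sequenced, was low for the sum of 35 members at 416 (618 to 657). Control library 4 was high for Mpeg1 at 169.5 (143 to 146).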

How the results depend on the processing

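Member calls were read as counts, and their direction (lower with NP24 or Tβ10, higher with Tβ4) was the same in every fit run. For the members named by the rule, 1484 of 1680 values kept their direction and side of the threshold, 137 lost the threshold, 16 gained it and 43 changed sign; the cause was not tested. DESeq2 called 1178 genes for NP24 against control, 7 members and 423 genes for Tβ10 against control, 75 genes for Tβ4 against control, 1172 genes for NP24 against Tβ4 and 807 for Tβ4 against Tβ10; edgeR called 518 for NP24, 129 for Tβ10 and 0 for Tβ4 against control, 550 for NP24 against Tβ4 and 317 for Tβ4 against Tβ10. Scaling to library size gave 1 member for Tβ10 against control and 614 genes for Tβ4 against Tβ10. No filter on low values gave 365 genes for NP24 against control, 9 members for NP24 against Tβ4, and 7 members and 184 genes for Tβ4 against Tβ10. Taking the spread from all 16 libraries gave 120 genes for NP24, 1 member and 62 genes for Tβ10 and 2 genes for Tβ4 against control. Taking it from the 8 libraries concerned gave 7 members and 109 genes for NP24 against Tβ4, and 2 members and 77 genes for Tβ4 against Tβ10. With the mitochondrial ribosomal RNA share as a covariate, members called were 0 in all 6 comparisons, and genes were 0 for NP24 and 0 for Tβ10 against control, 7 for NP24 against Tβ4 and 10 for Tβ4 against Tβ10. Leaving out the members that overlap another gene gave 5 calls for NP24, 3 for Tβ10 and 0 for Tβ4 against control, 0 for NP24 against Tβ10, 11 for NP24 against Tβ4 and 9 for Tβ4 against Tβ10.

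Of 24 pairs of libraries with the same replicate number, 1 had a correlation of deviations over 0.1 (range -0.30 to 0.11). The largest correlation, 0.45, was between libraries of unlike number, Tβ10 library 1 and Tβ4 library 2. These values cannot tell whether libraries were paired. With a replicate block, NP24 against control kept a count of 7 members, Tβ10 against control had 1 member and 91 genes, Tβ4 against control 2 genes, NP24 against Tβ4 9 members and Tβ4 against Tβ10 214 genes.

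Leaving out 1 library at a time gave 1 to 7 members and 106 to 760.0 genes for NP24 against control, 0 to 6 and 28 to 315 for Tβ10 against control, 0 to 1 and 0 to 354 for Tβ4 against control, 6 to 18 and 104 to 1392 for NP24 against Tβ4, and 2 to 14 and 87 to 1052 for Tβ4 against Tβ10. The lowest counts came without control library 1 (NP24 and Tβ10 against control) and without Tβ4 library 1 (both Tβ4 contrasts with peptides), the highest gene counts in those with Tβ4 without its library 2.

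The log2 ratio of the summed level of all 37 members to control was -0.46 for NP24, -0.36 for Tβ10 and 0.34 for Tβ4. For NP24 it was -0.40 with scaling to library size, -1.12 as the mean of log2 levels and -1.35 without Cx3cr1 and P2ry12. For Tβ10 the last 2 were -0.96 and -1.17, and for Tβ4 the mean of log2 levels gave 0.77.

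Changes of sign concerned values that passed in no fit. With the mitochondrial covariate, Fcer1g (0.25) and Fcgr3 (0.81) for NP24 and Fcer1g (0.27) for Tβ10 turned positive against control, and Lyz2 (-0.24), Mpeg1 (-0.026), Lgals3 (-0.32) and Irf8 (-0.30) turned negative for Tβ4 against control. With library-size scaling Mpeg1 was -0.017 for Tβ4 against control and Cd68 -0.024 for NP24 against Tβ10. Fcer1g for Tβ4 against control was -0.052 in edgeR and -0.041 in DESeq2, and Cd68 for NP24 against Tβ10 was -0.012 in edgeR. Cx3cr1 for NP24 against Tβ4 was 0.10 with library-size scaling and 0.052 with the covariate, and for Tβ4 against Tβ10 -0.18 with library-size scaling, -0.0054 with TMM and -0.083 with the covariate. Leaving out libraries, Tβ4 against control ranged over -0.090 to 0.50 for Lyz2, -0.32 to 0.13 for Cd68, -0.14 to 0.50 for Lgals3, -0.36 to 0.60 for Fcer1g and -0.12 to 0.78 for Irf8. NP24 against Tβ10 ranged over -0.24 to 0.61 for Lyz2, -0.14 to 0.19 for Cd68, -0.14 to 0.062 for Mpeg1, -0.11 to 0.037 for Cx3cr1, -0.031 to 0.74 for Cd84, -0.30 to 0.99 for C1qb, -0.89 to 0.40 for Irf8 and -0.38 to 0.18 for Myo1f. Cx3cr1 for Tβ4 against Tβ10 ranged over -0.066 to 0.077.

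Depth limits the members with few reads most: 7 of 37 were never tested, and intervals of low members such as Fcgr3, Ly86 and Cd53 span several log2 units. Peptide and mitochondrial ribosomal RNA share cannot be told apart where their groups differ in both.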
